A study of Homo sapiens with 4 samples.

Results

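TFRC, FTH1 and FTL encode the transferrin receptor and the heavy and light chains of ferritin, the proteins for iron uptake and iron storage. These 3 of the 2897 genes in the deposited table were selected on their measured FPKM values in all 4 libraries, so their levels and ratios are given as a description, with no test. The study asked what isorhamnetin (ISO), a plant flavonol, does to human gastric cancer (GC) cells, and sequenced RNA from 2 GC lines. AGS-1, labelled AGS as a cell line, is a gastric adenocarcinoma line, and HGC-27 is an undifferentiated gastric carcinoma line. Each line gave 1 untreated control library and 1 library after ISO at 50 μM for 24 h, both from wild-type cells in RPMI-1640 medium with fetal bovine serum. The study's text gives a lower dose than its labels, whose dose is printed here, and speaks of duplicates, while the table holds 1 column per condition. With 1 library per condition no difference has a replicate check, and every interval below covers counting error only.

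Cells take up iron bound to transferrin through the transferrin receptor, which is internalised in clathrin-coated pits and recycled to the surface. Iron that is not used at once is stored in ferritin, a hollow shell of heavy chains, which oxidise iron, and light chains, which help it to mineralise inside. Iron regulatory proteins bind hairpins called iron-responsive elements when iron is scarce, which protects the TFRC mRNA from decay and blocks translation of both ferritin mRNAs, so that mRNA and protein of ferritin need not move together.

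The 4 libraries were similar in depth. The deposited values correspond to a library total of 15235004 fragments in the AGS-1 control, 15957590 in AGS-1 with ISO, 20199425 in the HGC-27 control and 17072456 in HGC-27 with ISO. The 2897 genes held 78.5% of the AGS-1 control library and 64.4% of the AGS-1 ISO library, against 61.0% and 59.96% in HGC-27. Mitochondrial genes took 9.43% and 14.3% of the AGS-1 libraries and 9.75% and 12.4% of the HGC-27 libraries, more with ISO in both lines.

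The labels of the lines were compared with markers. AGS-1 had the epithelial genes, with 6 of 8 listed markers in the table summing to 2193 FPKM in control and 1402 FPKM with ISO, of which the keratin KRT19 was the most abundant in the control at 598 FPKM. HGC-27 had only 8.68 and 6.81 FPKM of the same markers, and KRT19 had 0 fragments in both its libraries, which allows at most 0.0636 and 0.0752 FPKM. HGC-27 instead had mesenchymal and fibroblast genes. For the mesenchymal list, 2 of 7 markers (VIM and TWIST1) summed to 640 and 404 FPKM, against 0.697 and 0.860 FPKM in AGS-1. For the fibroblast list, 2 of 5 markers, the collagens COL3A1 and COL1A1, summed to 776 and 602 FPKM in HGC-27 and to 9.75 and 6.83 FPKM in AGS-1. Of 7 leukocyte and macrophage markers only lysozyme (LYZ), which gastric epithelium also makes, was in the table, at 594 and 314 FPKM in AGS-1 and 0 fragments in HGC-27. Endothelial and erythroid markers were not analysed here. All marker sums above 0 were lower with ISO except the near-zero mesenchymal sum of AGS-1, and most genes of the table were lower too. Single epithelial markers differed. CLDN4 was at 218 and 225 FPKM in AGS-1 control and ISO and at 0.927 and 1.72 FPKM in HGC-27. EPCAM was at 248 and 167 FPKM and at 0.387 and 0.506 FPKM, while KRT8, KRT18 and MUC1 were lower with ISO in both lines. Their part in the values of the iron genes was not tested, and in bulk RNA fewer cells of a type and less RNA per cell cannot be told apart.

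TFRC (ENSG00000072274) lies at chr3:196027183-196082096 on the minus strand of GRCh38. Its main transcript in GENCODE 29, 5111 bases long, holds 4 matches to the iron-responsive element in its 3′ UTR of 2661 bases, the region through which the mRNA's stability is controlled. The search looked along the transcript for a C, any 5 bases and the loop CAGTGN, with 5 base pairs (G-U pairs allowed) flanking the loop. FTL (ENSG00000087086), at chr19:48965309-48966879 on the plus strand, holds 1 match in its 5′ UTR of 207 bases. FTH1 (ENSG00000167996) lies at chr11:61959718-61967634 on the minus strand, and whether its transcript holds a match is not reported here. The matches in TFRC and FTL are shown because such sites tie the mRNAs to iron. Each is given 5′ to 3′ on the gene's own strand with the loop of 6 bases in capitals.
TFRC-1, chr3:196050978-196051007: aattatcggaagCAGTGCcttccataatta
TFRC-2, chr3:196050574-196050603: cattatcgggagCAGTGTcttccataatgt
TFRC-3, chr3:196050509-196050538: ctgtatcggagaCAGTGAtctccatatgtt
TFRC-4, chr3:196050462-196050491: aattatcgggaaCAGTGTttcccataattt
FTL-1, chr19:48965335-48965364: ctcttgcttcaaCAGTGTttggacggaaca

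The pattern was rare. Among protein-coding genes with a 5′ UTR at least as long as that of FTL, 8 of 9493 had a match in the first 207 bases (0.0843%). Of 4065 genes with a 3′ UTR of at least 2661 bases, 37 had a match in that window (0.910%), and TFRC alone had 4. Among genes in the table, 3 of 1437 (0.209%) had a match in the 5′ window and 6 of 320 (1.88%), TFRC included, had one in the 3′ window. A match is a likeness of letters and not a measured binding site, and elements of another form were not searched.

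**Figure D1:**
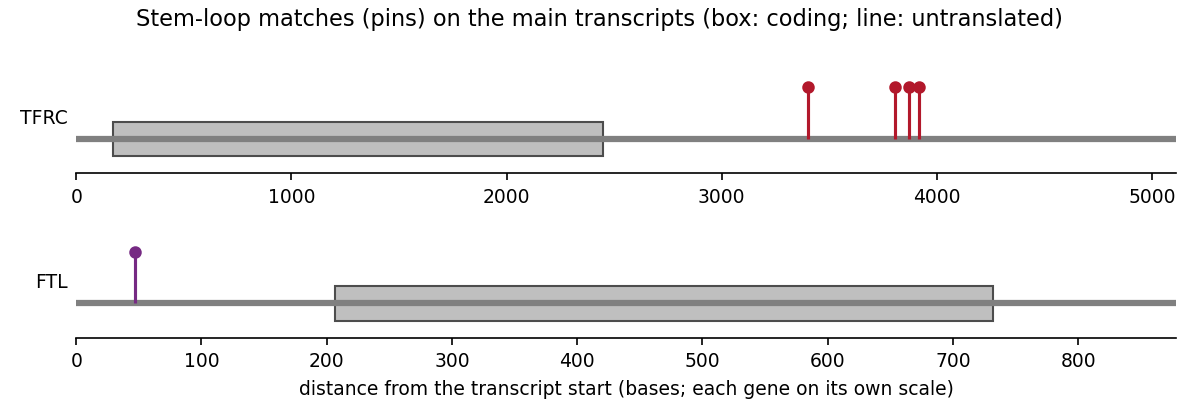
Main transcripts of TFRC and FTL with the coding sequence as a box, the untranslated ends as a line and each match to the iron-responsive element as a pin, against the distance from the transcript start in bases on each gene's own scale. TFRC carries its 4 matches after the coding sequence, while FTL carries 1 before it.

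TFRC, the receptor that brings in transferrin-bound iron, was the lowest of the 3 genes in every library. Its level was 13.2 FPKM in the AGS-1 control (95% counting interval 12.6 to 13.9, from 1567 fragments) and 32.0 FPKM in AGS-1 with ISO (31.0 to 33.0, from 3980 fragments). In HGC-27 it was 17.97 FPKM in control (17.3 to 18.6, from 2829 fragments) and 70.1 FPKM with ISO (68.7 to 71.5, from 9325 fragments). Both ISO libraries were above both controls. The ISO level was 2.42 times the control level in AGS-1 (2.29 to 2.57) and 3.90 times in HGC-27 (3.74 to 4.07). On the log2 scale of FPKM + 1, which understates changes of low genes, the ratios were 1.22 and 1.91. TFRC ranked 12 from the top of 2897 genes by this ratio in AGS-1 and 2 in HGC-27. By level it moved from rank 2597 in the AGS-1 control to 1186 with ISO, and from 2098 to 397 in HGC-27.

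FTH1, the ferritin chain that oxidises iron, was higher with ISO in both lines, but mostly in AGS-1. Its level was 182 FPKM in the AGS-1 control (178 to 187, from 5569 fragments) and 327 FPKM with ISO (321 to 333, from 10451 fragments). In HGC-27 it was 381 FPKM in control (375 to 387, from 15431 fragments) and 442 FPKM with ISO (435 to 449, from 15116 fragments). The AGS-1 ISO library stayed below both HGC-27 libraries. The ISO level was 1.79 times the control in AGS-1 (1.73 to 1.85) and 1.16 times in HGC-27 (1.13 to 1.19), with log2 ratios of 0.84 and 0.21 and ranks of 40 and 430 among all genes.

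FTL, the chain that promotes mineral growth in the shell, was the highest of the 3 genes in every library with the gene lengths of the table and differed mainly between the lines. It stood at 3996 FPKM in the AGS-1 control (3962 to 4029.9, from 53022 fragments) and 4008 FPKM with ISO (3975 to 4041, from 55707 fragments). In HGC-27 it stood at 651 FPKM in control (639 to 663, from 11445 fragments) and 678 FPKM with ISO (665 to 691, from 10079 fragments). The intervals of the AGS-1 control and ISO libraries overlapped. The ISO level was 1.00 times the control in AGS-1 (0.991 to 1.02) and 1.04 times in HGC-27 (1.014 to 1.07), with log2 ratios of 0.00 and 0.06. Of all fragments of the library, FTL took 0.348% in untreated AGS-1 and 0.0567% in untreated HGC-27.

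**Figure D2:**
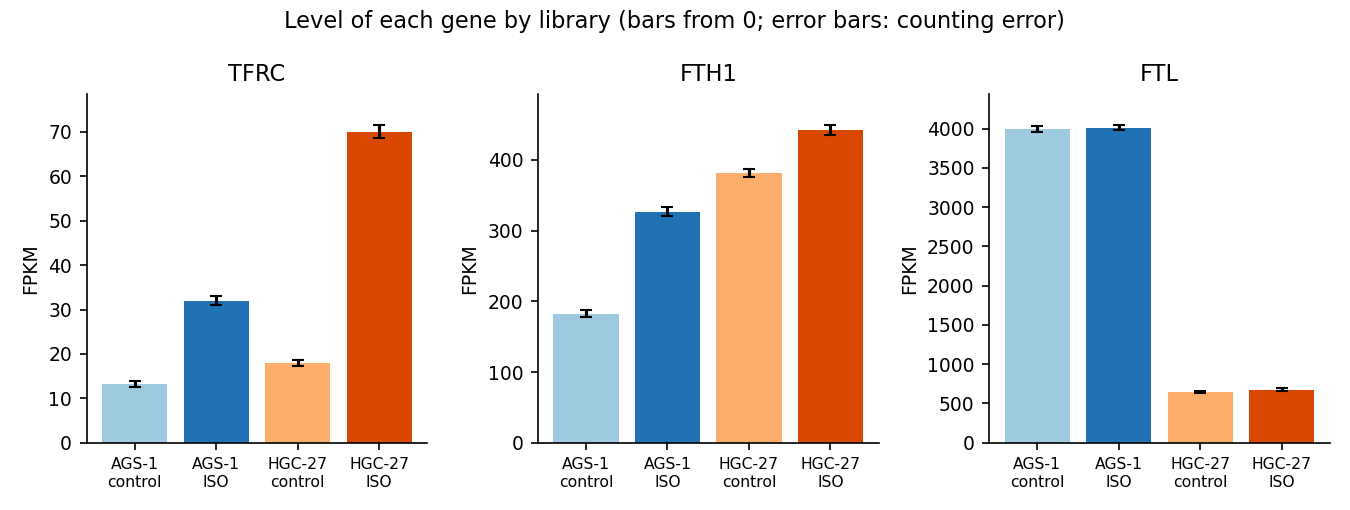
FPKM of TFRC, FTH1 and FTL in the 4 libraries, 1 bar per library starting at 0, with error bars for the 95% counting interval and a separate axis for each gene. TFRC is highest in HGC-27 with ISO at 70.1 FPKM, FTH1 steps up from 182 to 327 FPKM in AGS-1, and FTL is at 3996 and 4008 FPKM in AGS-1 and at 651 and 678 FPKM in HGC-27.

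The ratios have to be read against a shift of the listed genes as a whole. How these genes were picked is not known, and their share of the AGS-1 library was 78.5% in control and 64.4% with ISO. The medians below and most of the other scalings use the listed genes alone, so they take no account of genes outside the table. The median log2 ratio of all genes was -0.29 for AGS-1 and -0.11 for HGC-27, and 2276 of 2897 genes lay below 0 in the first and 1860 in the second line. Relative to these medians TFRC stood at 1.503 and 2.01, FTH1 at 1.124 and 0.32, and FTL at 0.29 and 0.16. All 3 genes therefore lay above the median of the table in both lines. With other scalings of the libraries TFRC and FTH1 had the same direction. FTL in AGS-1 moved from 0.00 to as much as 0.47, so whether FTL was level or higher with ISO there depended on the scaling.

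Few genes passed a log2 ratio of 1 in either line. In AGS-1 24 genes (0.828%) were higher by at least this much and 192 (6.63%) lower, and in HGC-27 16 (0.552%) were higher and 27 (0.932%) lower. TFRC was among the higher genes in both lines, while FTH1 and FTL passed in neither with the deposited scaling. FTH1 passed in AGS-1 with 3 other scalings, at 1.115 to 1.298. Since TFRC was selected with these ratios known, nothing is read from its place. The balance of higher and lower genes rested on the scaling. It was 50 to 72 in AGS-1 with median-of-ratios scaling and 69 to 38 when scaled to the listed nuclear genes, and with upper-quartile scaling it was 60 to 45 in AGS-1 and 26 to 15 in HGC-27.

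The change with ISO also differed in size between the lines, in opposite senses for TFRC and FTH1. The HGC-27 log2 ratio minus the AGS-1 log2 ratio was 0.69 for TFRC (counting SE 0.05), -0.63 for FTH1 (counting SE 0.03) and 0.05 for FTL (counting SE 0.02). The median of this difference over all genes was 0.20. The sizes depend on scaling. Scaled to listed nuclear genes they were 0.37 for TFRC, -0.98 for FTH1, -0.30 for FTL and -0.13 for the median, so the sign held for TFRC and FTH1 but not for FTL. With the deposited scaling the difference was larger than that of TFRC for 347 genes and lower than that of FTH1 for 90 genes. These differences were not tested, since each rests on 1 library per condition.

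**Figure D3:**
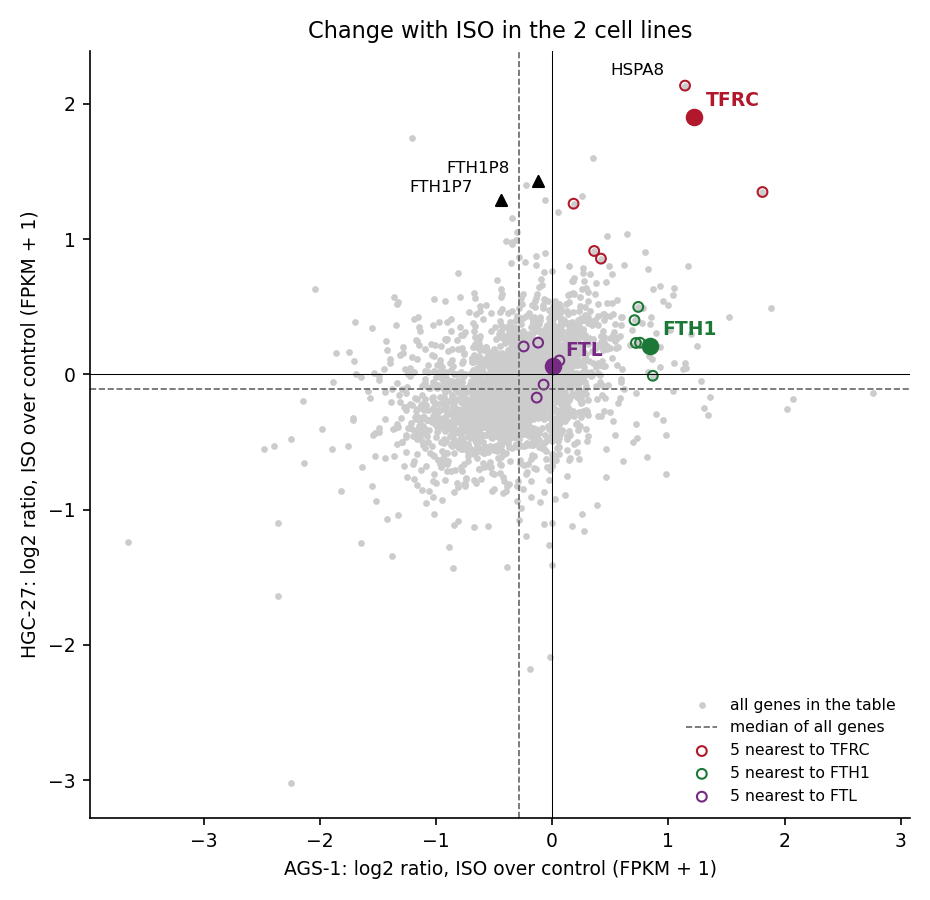
Log2 ratio of ISO over control in AGS-1 (horizontal) and HGC-27 (vertical) for all 2897 genes in grey, with TFRC, FTH1 and FTL as filled circles, the 5 genes nearest to each as open circles, the ferritin pseudogenes as triangles and the medians of all genes as dashed lines. TFRC lies at 1.22 and 1.91 beside HSPA8, FTH1 lies to the right at 0.84 and 0.21, and FTL lies near the origin.

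Ratios within a library do not depend on how libraries were scaled, so the receptor was set directly against the ferritin chains. Per 100 FPKM of FTH1, TFRC was 7.23 FPKM in untreated and 9.79 FPKM in ISO-treated AGS-1 cells, and 4.71 FPKM in untreated and 15.9 FPKM in ISO-treated HGC-27 cells. The AGS-1 control had more receptor per heavy chain than the HGC-27 control, and the order of the lines was turned with ISO. The ratio with ISO was 1.35 times that of control in AGS-1 (1.27 to 1.45) and 3.36 times in HGC-27 (3.21 to 3.53). In both lines TFRC thus moved more than FTH1, and the ratio moved more in HGC-27.

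Set against the light chain, the receptor was higher with ISO in both lines. Per 100 FPKM of FTL, TFRC was 0.330 FPKM in untreated and 0.798 FPKM in ISO-treated AGS-1 cells, and 2.76 FPKM in untreated and 10.3 FPKM in ISO-treated HGC-27 cells. This is 2.42 times the control ratio in AGS-1 (2.28 to 2.57) and 3.74 times in HGC-27 (3.56 to 3.93). HGC-27 had more receptor per light chain than AGS-1 in control and with ISO.

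The make-up of the ferritin mRNAs set the lines apart. Per FPKM of FTH1 there were 21.9 FPKM of FTL in untreated AGS-1 (21.3 to 22.5) and 12.3 in the ISO library (12.01 to 12.5), against 1.71 in untreated HGC-27 (1.67 to 1.75) and 1.53 after ISO (1.496 to 1.57). AGS-1 thus had a large excess of light chain mRNA, which was smaller with ISO, by a factor of 0.560 (0.541 to 0.580), and HGC-27 had the chains closer together, with a factor of 0.899 (0.868 to 0.931). These levels rest on gene length. The table gives FTH1 a length of 2004 bases, and with the main transcripts of 1229 bases for FTH1 and 878 bases for FTL in its place, an alternative chosen after seeing the data, the ratios were 13.3 and 7.46 in AGS-1 and 1.04 and 0.933 in HGC-27. Which chain led in HGC-27 with ISO was thus not settled, while the order of the lines was the same, and the change with ISO does not depend on length.

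**Figure D4:**
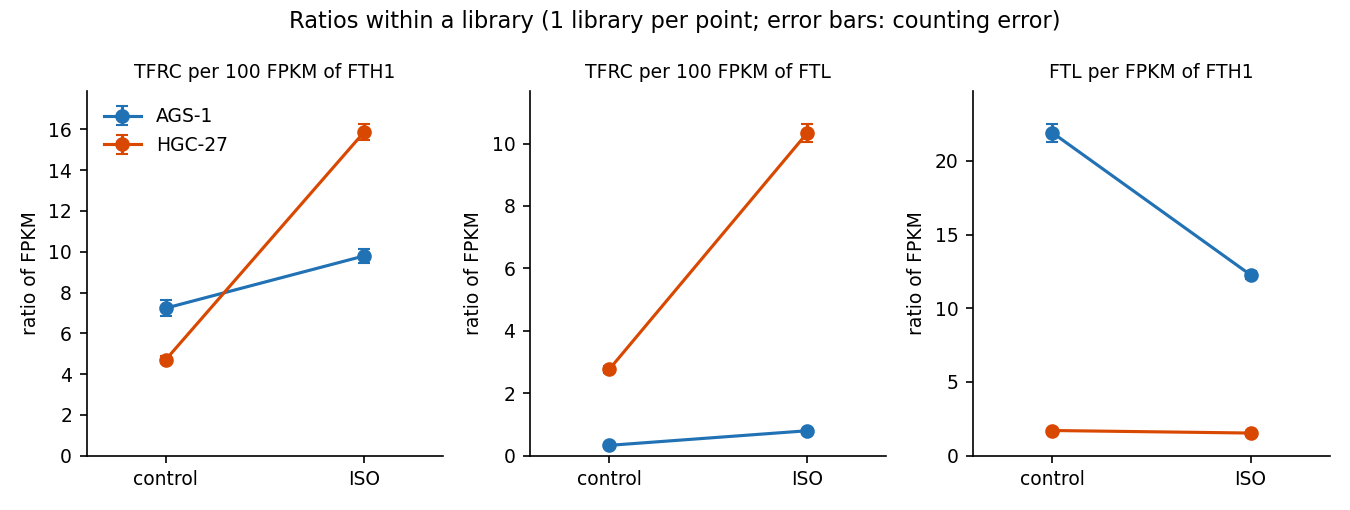
FPKM of TFRC per 100 FPKM of FTH1 (left) and of FTL (centre) and FPKM of FTL per FPKM of FTH1 (right) in control and ISO libraries of AGS-1 (blue) and HGC-27 (orange), 1 library per point, with 95% counting intervals. TFRC per FTH1 goes from 4.71 to 15.9 in HGC-27, and FTL per FTH1 goes from 21.9 to 12.3 in AGS-1.

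Of the 3 genes FTL differed most between the untreated lines. FTL in the AGS-1 control was 6.14 times that in the HGC-27 control (6.02 to 6.27), a log2 ratio of 2.62. FTH1 was the other way round, 2.09 times higher in the HGC-27 control (2.03 to 2.15), a log2 ratio of -1.06 for AGS-1 over HGC-27. TFRC was 1.36 times higher in the HGC-27 control (1.28 to 1.45). The background was broad here, since 694 genes (24.0%) were higher in the AGS-1 control by a log2 ratio of at least 1 and 368 (12.7%) higher in the HGC-27 control, and the median log2 ratio of all genes was 0.16. This balance was reversed by scaling, to 500 and 559 with upper-quartile scaling and 469 and 612 when scaled to listed nuclear genes. The log2 ratios of AGS-1 over HGC-27 became 2.19 for FTL, -1.48 for FTH1 and -0.81 for TFRC with the latter. With ISO the gap in FTH1 was smaller, 1.35 times (1.32 to 1.39), and that in TFRC larger, 2.19 times (2.11 to 2.27).

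The FTH1 values carry a limit from its genomic copies. FTH1P7 on chromosome 13 and FTH1P8 on the X chromosome are processed pseudogenes, copies of the spliced mRNA without introns, and the table lists both. Aligned to the FTH1 transcript, FTH1P7 had 97.3% identical bases and shared an unbroken run of 150 bases with it, and FTH1P8 had 98.1% and a run of 125 bases. A short fragment inside an identical stretch can be placed on either, and how often this happened was not examined.

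Both pseudogenes had few fragments. FTH1P7 had 162 and 123 fragments in AGS-1 control and ISO and 104 and 228 in HGC-27, or 19.3, 14.0, 9.33 and 24.2 FPKM. FTH1P8 had 115, 110, 88 and 215 fragments in the same order, or 14.7, 13.4, 8.48 and 24.5 FPKM. Both copies were at their highest in HGC-27 with ISO, where FTH1 itself was highest, yet in AGS-1 they were not higher with ISO although FTH1 was. The fragments of each copy came to between 0.570% and 2.91% of those of FTH1, and adding those of both to FTH1 changed the log2 ratios of FTH1 to 0.80 (AGS-1) and 0.24 (HGC-27). A second limit is BEST1, a gene on the opposite strand whose exons overlap 1267 of the 2030 exonic bases of FTH1 in GENCODE 29. BEST1 was not analysed here, and whether the counting used strand is not given in the sources used here. In the overlapping bases its fragments and those of FTH1 therefore cannot be told apart.

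The genes with the pattern most like each member were found by the Euclidean distance over the 4 libraries in log2(FPKM + 1), centred for each gene, among the 2843 genes whose mean FPKM was 10 or more. Nearest to TFRC was HSPA8, a constitutive heat shock cognate chaperone, at a distance of 0.32. Its level was 54.5 and 122 FPKM in AGS-1 control and ISO and 79.7 and 354 FPKM in HGC-27, with log2 ratios of 1.14 and 2.14. The next were farther off, from 0.89 to 1.02. They were the microRNA gene MIR3153, the ubiquitin ligase gene RNF145, the ribosomal protein pseudogene RPS18P12 and SEC61A1, which encodes the channel for proteins entering the endoplasmic reticulum. RNF145 was at 21.6 and 24.6 FPKM in AGS-1 and 20.8 and 51.4 FPKM in HGC-27, and SEC61A1 at 76.2 and 98.2 FPKM and 79.1 and 149.9 FPKM, so in both the difference was mainly in HGC-27. MIR3153 rested on 7, 29, 12 and 28 fragments and lies inside CKS2 on the same strand, and RPS18P12 is a copy of another gene, so both are uncertain.

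FTH1 and FTL had nearer neighbours. The 5 nearest to FTH1 were TROAP and SPAG5, whose products act at the mitotic spindle, the splicing factor gene KHDC4, SRRT, which works in RNA processing, and the mitochondrial transfer RNA gene MT-TC, at distances from 0.11 to 0.22. TROAP, the nearest, was at 11.95 and 20.9 FPKM in AGS-1 and 26.8 and 31.7 FPKM in HGC-27. Like FTH1 it was higher with ISO mainly in AGS-1 and higher in HGC-27 than in AGS-1. The 5 nearest to FTL were PCBD1, an enzyme of tetrahydrobiopterin recycling, RBCK1, a subunit of the linear ubiquitin ligase, the SMAD-binding repressor SKIL, SEL1L3 and the tetraspanin CD9, at 0.11 to 0.34. PCBD1 was at 66.3 and 62.9 FPKM in AGS-1 and 10.0 and 9.45 FPKM in HGC-27, and RBCK1 at 195 and 204 FPKM and 27.6 and 29.7 FPKM. All 5 were high in AGS-1 and low in HGC-27, with log2 ratios of ISO over control between -0.25 and 0.23.

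Other genes of iron handling were taken from 12 lists, of which 69 genes besides the members were in the table. By value 58 of the 69 were lower with ISO for AGS-1 and 50 for HGC-27, but so was the table as a whole, and 38 and 30 of them lay above the all-gene median. Their own medians were -0.24 and -0.17, beside -0.29 and -0.11 for all genes. Other scalings raised the all-gene median by up to 0.42 (AGS-1) and 0.14 (HGC-27) and single genes by up to 0.46 and 0.15, so a negative value nearer to 0 than this can change its sign. The change shared by the lines was tested with limma over all 4 libraries, with the line in the model and 1 residual degree of freedom. Of 2883 genes 3 (0.104%) rose and 24 (0.832%) fell at a limma adjusted p under 0.05, and 578 had an unadjusted p under 0.05. The members were selected with these values known, so no p is given for them or for the genes named for their likeness to them. None of the 69 list genes passed in limma, and 1 higher and 15 lower ones had an unadjusted p under 0.05, beside 64 higher and 514 lower of all genes. This split of the list genes depended on scaling. It was 3 higher and 11 lower with median-of-ratios scaling, 6 and 4 with upper-quartile scaling and 4 and 5 when scaled to listed nuclear genes. The limma count was 0 with median-of-ratios or upper-quartile scaling, with the line left out of the model and with a library total without mitochondrial genes, so these calls depend on such settings.

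**Figure D5:**
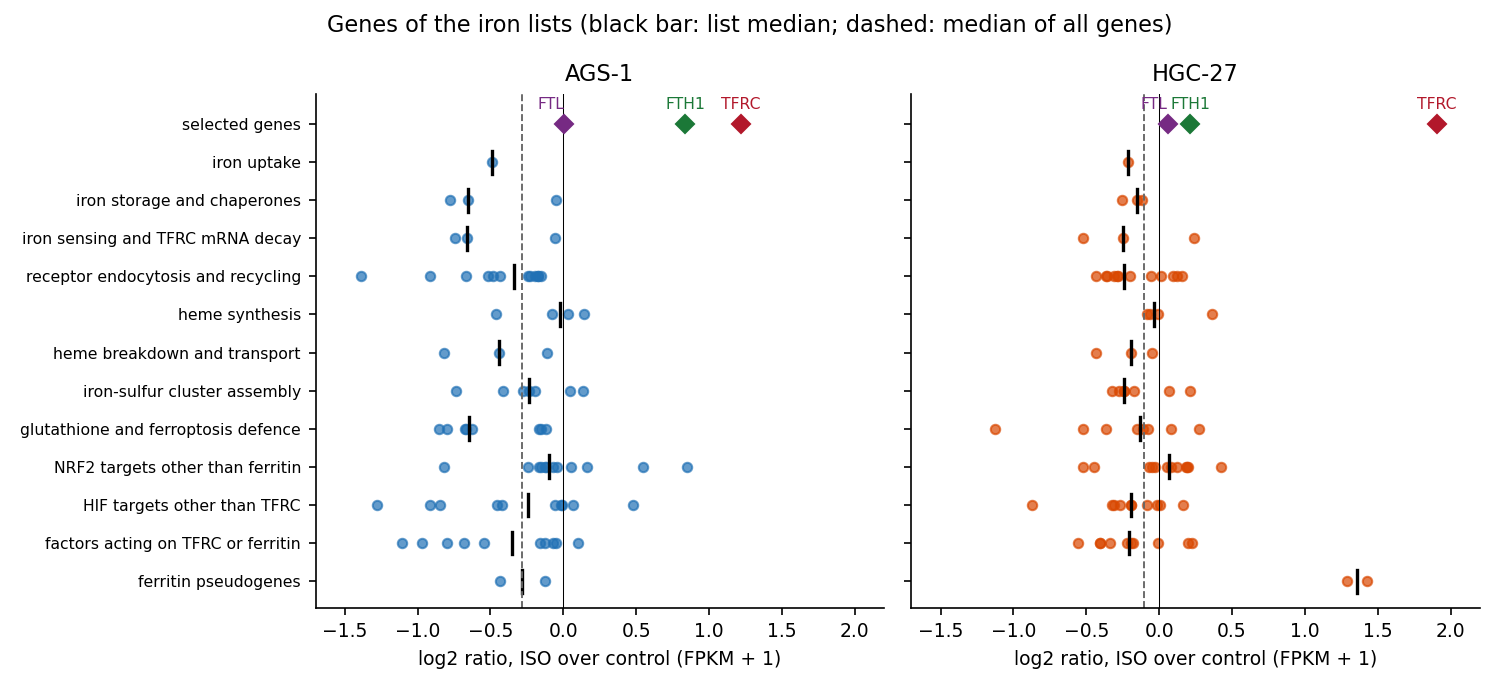
Log2 ratio of ISO over control for each gene of the iron lists in AGS-1 (left) and HGC-27 (right), 1 point per gene, with the list median as a black bar, the median of all genes as a dashed line and TFRC, FTH1 and FTL as diamonds in the top row. The list genes scatter around the dashed line, at -0.29 and -0.11, while the pair of ferritin pseudogenes lies near it in AGS-1 and above 1 in HGC-27.

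The other genes of iron uptake, storage and sensing did not show the pattern of TFRC. Of 15 genes listed for uptake, SLC39A14, a transporter for iron not bound to transferrin, was the only one in the table besides TFRC, at 59.98 and 42.5 FPKM in AGS-1 and 45.7 and 39.3 FPKM in HGC-27. Storage and chaperones gave 3 of 9 genes besides the ferritin chains. NCOA4, which carries ferritin to the lysosome, was at 36.6 and 22.8 FPKM in AGS-1 and 38.5 and 35.4 FPKM in HGC-27, and TAX1BP1, an autophagy receptor, at 27.0 and 15.3 FPKM and 14.7 and 12.1 FPKM. The iron chaperone PCBP2 was at 21.0 and 20.2 FPKM in AGS-1 and 35.1 and 31.6 FPKM in HGC-27. NCOA4 and TAX1BP1 were thus lower with ISO in AGS-1, by log2 ratios of -0.66 and -0.78, where FTH1 was higher.

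For iron sensing and TFRC mRNA decay 3 of 8 genes were in the table, all of the ZFP36 family, whose proteins bind AU-rich mRNAs and speed their decay. ZFP36 was at 229 and 220 FPKM in AGS-1 and 3.11 and 3.85 FPKM in HGC-27. ZFP36L1 was at 146 and 92.1 FPKM and 16.6 and 13.8 FPKM, and ZFP36L2 at 46.7 and 27.6 FPKM and 28.6 and 19.6 FPKM. ZFP36 and ZFP36L1 were far higher in AGS-1 than in HGC-27, and ZFP36L2 was lower with ISO in both lines, with log2 ratios of -0.74 and -0.52 (limma adjusted p = 0.121). The iron regulatory proteins, FBXL5 and all 9 genes of iron export were not analysed here.

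The path the receptor takes into the cell was well covered, with 12 of 19 genes of endocytosis and recycling. All 12 had log2 ratios below 0 in AGS-1, with a median of -0.34, and 8 did in HGC-27, with a median of -0.24, beside medians of -0.29 and -0.11 for all genes, and 6 and 5 of the 12 lay above these. CLTB, a clathrin light chain, was at 178 and 67.5 FPKM in AGS-1 and 47.9 and 41.5 FPKM in HGC-27, log2 ratios of -1.39 and -0.20. Its limma adjusted p was 0.152. The other light chain gene CLTA, at 52.7 and 47.2 FPKM and 80.2 and 65.5 FPKM, and the adaptor subunit gene AP2S1, at 140.2 and 87.7 FPKM and 48.9 and 39.3 FPKM, completed those named. None of these 3 was higher with ISO by the deposited values.

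Heme and iron-sulfur clusters are the main users of iron in most cells. In heme synthesis 4 of 14 genes had medians of -0.02 and -0.04, among them ALAS1, the first enzyme of the path, at 48.5 and 34.9 FPKM in AGS-1 and 25.9 and 24.7 FPKM in HGC-27, and SLC25A28, a mitochondrial iron importer, at 14.8 and 16.5 FPKM and 35.5 and 45.9 FPKM. UROD, another enzyme of the path, had log2 ratios of -0.08 and -0.09. In heme breakdown and transport 3 of 8 genes had medians of -0.44 and -0.19, with BLVRA and BLVRB, the biliverdin reductases, at -0.44 and -0.82 in AGS-1 and -0.19 and -0.05 in HGC-27, and the heme-binding PGRMC1 at -0.11 and -0.44. In iron-sulfur cluster assembly 7 of 26 genes had medians of -0.24 in both lines. The chaperone HSPA9 had log2 ratios of -0.73 and -0.24, GLRX5, which carries clusters, -0.24 and -0.24, and CIAO2B, a part of the cytosolic targeting complex, -0.28 and 0.07.

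In glutathione and ferroptosis defence 8 of 19 genes had medians of -0.65 and -0.13. CHAC1, which breaks down glutathione, was at 200.2 and 125 FPKM in AGS-1 and 82.2 and 37.2 FPKM in HGC-27, with log2 ratios of -0.68 and -1.13 and a limma adjusted p of 0.0919. It passed in limma in only 2 of 10 other settings, a pseudocount of 0.1 FPKM and a filter at a mean of 10 FPKM, in which 107 and 104 genes passed. SLC3A2, a chain of the cystine importer, was at 200.04 and 115 FPKM and 156 and 144 FPKM, and the small heat shock protein gene HSPB1 at 102 and 56.1 FPKM and 398 and 310 FPKM. SAT1, which acetylates polyamines, was at 632 and 397 FPKM in AGS-1 and 6.12 and 7.62 FPKM in HGC-27. By the deposited values the genes named here were lower with ISO in both lines, apart from SAT1 in HGC-27, but so was most of the table. Of the 8 genes in the list, 8 and 6 had log2 ratios below 0, while 3 and 3 lay above the medians of all genes, -0.29 and -0.11. None of the 8 passed in limma with the main settings. The -0.11 of SLC3A2 in HGC-27 lies within the shift by scaling.

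Ferritin and TFRC have known regulators besides iron, and their other targets were listed too. Of 23 targets of NRF2, which induces ferritin genes, 12 were in the table besides ferritin, with medians of -0.10 and 0.07, and 11 and 10 of the 12 lay above the median of all genes. NQO1, a quinone reductase, was at 180 and 152 FPKM in AGS-1 and 64.3 and 66.7 FPKM in HGC-27, thioredoxin (TXN) at 169 and 189 FPKM and 189 and 215 FPKM, and PRDX1, a peroxidase, at 122 and 110.0 FPKM and 134 and 147 FPKM. The highest was PGD of the pentose phosphate path, with log2 ratios of 0.85 and 0.43, a gene picked out after its values were seen. None of the 12 passed in limma.

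Of 22 targets of the hypoxia-inducible factors, which induce TFRC, 10 were in the table, with medians of -0.24 and -0.19. The glucose transporter gene SLC2A1 was at 545 and 224 FPKM in AGS-1 and 18.5 and 20.7 FPKM in HGC-27, log2 ratios of -1.28 and 0.16. DDIT4, an inhibitor of mTORC1 signalling, was at 456 and 254 FPKM and 510 and 278 FPKM, with log2 ratios of -0.84 and -0.87 and a limma adjusted p of 0.132. The enolase gene ENO1 had -0.46 and -0.33. Of the 10 genes, 5 and 4 lay above the median of all genes, and the -0.46 of ENO1 lies within the shift by scaling.

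Among transcription factors known to act on TFRC or ferritin, 10 of 17 were in the table, with medians of -0.35 and -0.21. MYC, which can activate TFRC, was at 99.3 and 50.3 FPKM in AGS-1 and 71.7 and 56.6 FPKM in HGC-27, log2 ratios of -0.97 and -0.34 (limma adjusted p = 0.155). HIF1A was at 153 and 87.9 FPKM and 20.8 and 15.5 FPKM, and MAFK, a small MAF partner of NRF2, at 41.6 and 18.8 FPKM and 7.29 and 5.25 FPKM. JUND was at 215 and 208 FPKM and 198 and 170 FPKM. Of the 10 genes, 5 and 3 lay above the median of all genes, and none passed in limma.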

How the data were processed

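RNA-seq of 4 libraries was analysed, 1 per condition. The deposited values are FPKM, which the authors computed per gene, and the deposited gene length (another unit, in bases) is 1 number per gene. The submitters' processing notes name HISAT2 and CASAVA 1.8 and the build GRCh38. The counting tool, the annotation and how the 2897 genes were picked are not given in the sources used here. Multiplied by length, 100% of FPKM values were whole numbers of 1 unit in each library (within 0.02 units), which gave whole fragments and library totals.

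Log2 ratios used FPKM + 1. Counting intervals were exact Poisson for levels and normal on the log scale for ratios, at 95%. A floor is 3 fragments. For the change common to both lines, limma 3.58.1 was run in R 4.3.3 (lmFit, eBayes with trend, Benjamini-Hochberg, mean FPKM of 1 or more). The fit was also run on simulated data in which changed genes moved equally in both lines. Real changes that differ between the lines are not covered by that check. A gene counted as changed at a log2 ratio of at least 1. Alternatives were pseudocounts of 0.1 and 5 FPKM, other scalings, other filters, pseudogene fragments added, no line and no trend, plus main transcript lengths and a library total without mitochondrial rows, both chosen after seeing the data.

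The members and lists were chosen with earlier results of these data known. Genes named were the members, all genes of the 4 core iron lists (uptake, storage, sensing, export), ferritin pseudogenes, genes of other lists that passed a test or a 2-fold change or had the 3 highest means, the 5 nearest patterns, and PGD, picked after its values were seen. Of 182 list symbols 72 were in the table, all under their own name. Sequences came from GENCODE 29 on GRCh38, and sequence of FTH1 and its copies is not reported here. Other software was Python 3.11.15, with scipy 1.17.1, numpy 2.4.6, matplotlib 3.10.9 and pandas 2.3.3.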

Additional observations from a re-analysis of the deposited data

Results flagged for a closer look

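Several named genes had log2 ratios of ISO over control on opposite sides of 0 in the 2 lines, each beyond its counting error. None of these differences was tested, because there was 1 library per condition. FTH1P7, the FTH1 pseudogene on chromosome 13, had -0.44 in AGS-1 and 1.29 in HGC-27, a difference of 1.72, and from 162 and 123 fragments it is the thinnest of them. SLC2A1 had -1.28 and 0.16, a difference of 1.44, and SAT1 had -0.67 and 0.28, a difference of 0.94. SKIL had -0.25 and 0.21, a difference of 0.45, SEL1L3 -0.12 and 0.23, a difference of 0.36, and PRDX1 -0.15 and 0.12, a difference of 0.28. Relative to the median of all genes SKIL, SEL1L3 and PRDX1 were on the same side in both lines, at 0.04 and 0.31, 0.17 and 0.34, and 0.14 and 0.23. SLC2A1 and SAT1 stayed on opposite sides, at -0.995 and 0.27, and -0.38 and 0.38. FTH1P7 was at -0.15 and 1.39, the first within its counting error (SE 0.17).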

How the results depend on the processing

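TFRC and FTH1 had positive log2 ratios in both lines under every scaling and pseudocount tried, and so did FTH1 with pseudogene fragments added. Values are given for AGS-1, then HGC-27. TFRC was 1.02 and 1.71 with a pseudocount of 5 FPKM, 1.48 and 1.97 with median-of-ratios scaling, 1.61 and 2.06 with upper-quartile scaling and 1.65 and 2.02 scaled to listed nuclear genes. FTH1 was 1.115 and 0.28, 1.26 and 0.36, and 1.298 and 0.32 with these 3 scalings, and FTL 0.28 and 0.12, 0.43 and 0.21, and 0.47 and 0.17. With a library total without mitochondrial rows, chosen after seeing the data, FTH1 was 0.92 and 0.26 and FTL 0.084 and 0.102. Changes of the within-library ratios stayed within their 95% counting intervals when pseudogene fragments were added.

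Genes past a 2-fold change in AGS-1, 216 at first, were 122, 105 and 107 with these 3 scalings (higher and lower 50 and 72, 60 and 45, 69 and 38). In HGC-27, 43 at first, they were 73 with a pseudocount of 0.1 (27 and 46) and 27 with 5 (16 lower), and upper-quartile scaling gave 26 higher and 15 lower. Genes higher in the HGC-27 control, 368 at first, were 559 with upper-quartile and 612 with nuclear scaling, and those higher in the AGS-1 control, 694 at first, were 500 and 469, which reverses the balance. The limma count of 27 became 107 and 12 with pseudocounts of 0.1 and 5, 0 with median-of-ratios and with upper-quartile scaling (unadjusted p under 0.05 for 511 and 502 genes), 4 scaled to nuclear genes, 0 without mitochondrial rows (428 unadjusted), 6 without a filter, 104 at a mean of at least 10 FPKM, 0 without the line (15 unadjusted) and 6 without trend. The total of genes differing between the controls stayed within 1.5 times, from 905 to 1106. The cause of these moves was not tested.

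The main limma fit pairs control with ISO by cell line. No paired analysis was possible by replicate, because each group holds 1 library and no label gives a replicate number. Leaving out a library leaves no residual degree of freedom, so the limma calls have no such check. The FTL to FTH1 level depends on gene length, as given above. Thin rows such as the pseudogenes and MIR3153 are limited by depth.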
